A study of Rattus norvegicus with 9 samples.

Results

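The genes described here are the 10 glycolytic enzymes that skeletal muscle fibres are known to use: Hk2, Gpi, Pfkm, Aldoa, Tpi1, Pgk1, Pgam2, Eno3, Pkm and Ldha. The rule for the members is this list of names, drawn up with earlier results of these data known. They were found by matching the NCBI gene IDs of the files to RefSeq symbols. All 10 of 10 were found among 13752 gene IDs, and all 10 passed the filter on low counts. They were measured by sequencing of messenger RNA from rat gastrocnemius, a calf muscle, in 9 libraries of 3 groups with 3 libraries each. All groups were male rats labelled as 8 weeks old and were anaesthetised for the electrode procedure. SHAM rats had a sham operation, and DN rats had a sciatic nerve injury, which removes the nerve supply of the muscle; both had electrodes placed on the skin for 10 minutes with no current. DN-SM rats had the nerve injury and then daily stimulation of the left leg through surface electrodes for 4 weeks, with square pulses of 25 V, 1 mA, 2 Hz and a width of 300 ms. Strain, kind of nerve injury and time of collection are not given in the sources used here. The labels also do not state that each library is a separate animal, so p-values measure the spread between these samples, which may be technical.

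Glycolysis splits glucose into pyruvate in the cytosol and yields ATP without oxygen. Hexokinase traps glucose as glucose 6-phosphate, phosphofructokinase makes the committed step, and the enzymes below aldolase return ATP and NADH; lactate dehydrogenase then turns pyruvate into lactate and restores NAD. Fast fibres, which dominate the gastrocnemius, carry far more of these enzymes than slow fibres, and several steps use an isozyme that is typical of muscle (Pfkm, Pgam2, Eno3, Hk2).

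Library totals ranged from 7926445 to 8893843 expected counts, and the members held 265 to 245337 counts per library, lowest for Hk2 and highest for Aldoa. Summed markers of skeletal fibres (4 of 5 listed among Acta1, Ckm, Des, Mb and Ttn) read 103900 to 109150 FPKM for SHAM. They read 117930 to 130570 for DN and 114870 to 124010 for DN-SM, so the sums of both injured groups lay above SHAM. By the test used below, 0 of these markers were called in either injured group against SHAM. Of all genes, 15.9% in DN and 7.49% in DN-SM were above SHAM in FPKM without overlap. FPKM are the authors' fragment counts scaled to transcript length and to library size. Replicates of a group differed by more than sampling noise, with chi-square values per degree of freedom of 7.22 to 66.6 between pairs. Expected counts were whole numbers in every library for 8 of the 10 members. Those of Aldoa and Tpi1 were fractional, so reads shared with near copies make their levels uncertain. Pkm is 1 entry per gene, so its M1 and M2 splice forms could not be told apart. In bulk muscle, fewer cells of a type and less RNA per cell cannot be told apart.

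Promoter windows from RefSeq (build GRCr8, 250 bases before to 50 bases after the annotated start) were matched for 9 of the 10 members; Pgk1 had no entry. The windows below are those of the members that fell after nerve injury, Hk2 and Pfkm, and of the members whose fold changes were nearest to 0, Eno3 and Pgam2. Capitals mark CANNTG, the E-box bound by myogenic factors, and ACGTG, the core of a hypoxia response element, on either strand; no other motif is in capitals.
Hk2 (chr4:116841226-116841525, minus strand): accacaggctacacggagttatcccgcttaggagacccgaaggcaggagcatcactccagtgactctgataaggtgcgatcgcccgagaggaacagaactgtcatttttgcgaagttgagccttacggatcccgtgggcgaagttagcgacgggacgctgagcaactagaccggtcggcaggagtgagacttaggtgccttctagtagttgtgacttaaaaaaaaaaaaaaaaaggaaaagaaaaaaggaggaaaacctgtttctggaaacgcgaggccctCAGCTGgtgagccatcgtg
Pfkm (chr7:131113849-131114148, plus strand): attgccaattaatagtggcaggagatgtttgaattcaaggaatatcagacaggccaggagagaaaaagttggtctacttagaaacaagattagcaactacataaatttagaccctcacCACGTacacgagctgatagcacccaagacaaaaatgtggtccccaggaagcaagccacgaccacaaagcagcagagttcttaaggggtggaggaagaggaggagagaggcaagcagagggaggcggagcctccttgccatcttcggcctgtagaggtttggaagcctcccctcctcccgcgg
Eno3 (chr10:55868936-55869235, plus strand): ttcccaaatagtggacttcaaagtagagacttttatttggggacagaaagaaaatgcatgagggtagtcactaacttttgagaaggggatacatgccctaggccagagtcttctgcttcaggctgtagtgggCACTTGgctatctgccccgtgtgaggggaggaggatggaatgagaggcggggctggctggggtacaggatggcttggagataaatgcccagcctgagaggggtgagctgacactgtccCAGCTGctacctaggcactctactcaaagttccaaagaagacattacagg
Pgam2 (chr14:84897825-84898124, minus strand): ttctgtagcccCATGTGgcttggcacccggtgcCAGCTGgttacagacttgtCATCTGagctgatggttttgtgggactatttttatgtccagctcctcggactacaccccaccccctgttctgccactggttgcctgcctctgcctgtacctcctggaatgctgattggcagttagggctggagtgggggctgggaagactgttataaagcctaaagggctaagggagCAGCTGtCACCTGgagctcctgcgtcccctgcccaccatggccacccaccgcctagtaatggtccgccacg
The Pgam2 window held 5 E-boxes, Eno3 held 2, Hk2 held 1 and Pfkm held 0, while ACGTG occurred once in Pfkm and in none of the other windows printed. An E-box was in 6 of 9 member windows (Hk2, Gpi, Tpi1, Pgam2, Eno3 and Ldha), against 72.1% of 33365 windows of the same length. ACGTG was in 3 of 9 (Gpi, Pfkm and Ldha), against 19.3%. GGGCGG, the GC box, was in 4 of 9 against 33.1%, and TATAAA, the TATA box, was in 1 of 9, Pgam2, against 14.2%. One pattern for the core of the MEF2 site, with fixed letters at both ends and any letters between, was in 0 of 9 against 3.83%. Other forms of the MEF2 site were not searched for, so this count does not show that the windows lack such sites. ACGTG can overlap the E-box CACGTG. A match describes letters in this window and is no evidence of a site in use.

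The levels of the 10 enzymes spanned about 3 orders of magnitude in FPKM, a scale that is per length and so allows genes to be compared. Aldoa, the aldolase that splits fructose bisphosphate, was the highest in every group, at 18986 ± 2362 in SHAM (SD, n = 3), and made up 44.6 to 50.1% of the summed FPKM of the members. Below it, Eno3, the muscle enolase, was followed by Pgam2, the muscle phosphoglycerate mutase, with overlapping ranges in each group, then by Pkm, the pyruvate kinase. Pkm overlapped Pgam2 in SHAM but in neither injured group. Tpi1, the triose phosphate isomerase, and Ldha came next without overlap between them, at 2144 ± 202 and 1676 ± 234 in SHAM.

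Pfkm, Gpi, Pgk1 and Hk2 closed the order. In SHAM, Pfkm stood above Gpi, the glucose phosphate isomerase, without overlap, although it overlapped Ldha. In DN their ranges overlapped and Gpi had the higher mean, and in DN-SM they overlapped again with Pfkm the higher. Pgk1, the phosphoglycerate kinase that makes the first ATP of the lower pathway, was ninth in all groups, and Hk2, the hexokinase of insulin-sensitive muscle, was last at 14.4 ± 2.35 in SHAM. The summed FPKM of the 10 enzymes averaged 38202 ± 4942 for SHAM, 33189 ± 4096 for DN and 35775 ± 3003 for DN-SM, with overlapping ranges.

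**Figure D1:**
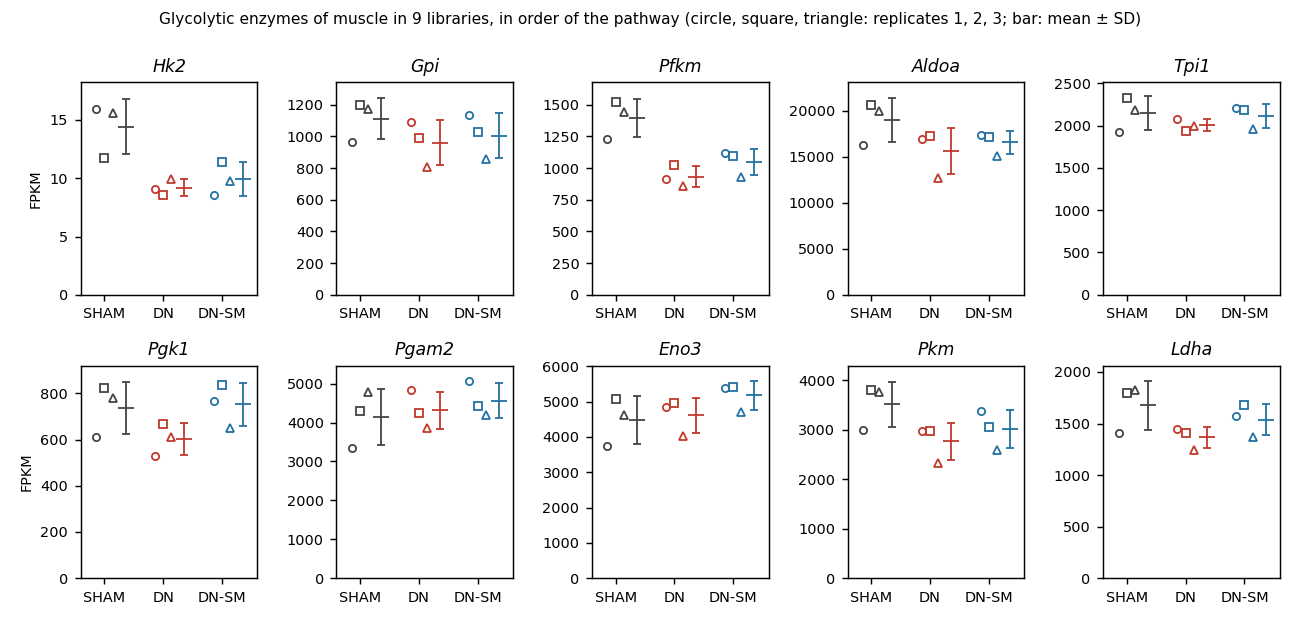
FPKM (vertical axis, linear from 0) of each of the 10 enzymes in SHAM, DN and DN-SM; points are the 3 libraries of a group and bars are mean ± SD. The Hk2 and Pfkm libraries of SHAM all sit above those of DN, while Eno3 and Pgam2 overlap in every group.

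After nerve injury, both gatekeeper enzymes of the upper pathway had lower messenger RNA, while Eno3 and Pgam2 of the lower pathway had fold changes close to 0. Hk2 and Pfkm were the 2 of 10 members lower in DN than in SHAM, and 0 were higher, by edgeR's quasi-likelihood test with a Benjamini-Hochberg adjusted p under 0.05 over 10129 genes. In that comparison 4.26% of all genes were called, 1.7% lower and 2.57% higher. All 10 members had a log2 fold change below 0, against 51.3% of all genes below and 48.6% above, with a median of -0.37 against -0.01 for all genes tested. At an unadjusted p under 0.05, 5 members were lower, against 11.4% of all genes. Libraries of a group moved together over most members, so the members are not independent of each other.

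Hk2 phosphorylates glucose as it enters the fibre. It read 15.9, 11.7 and 15.6 FPKM in SHAM replicates 1 to 3, 9.07, 8.56 and 9.97 in DN, beside 8.56, 11.4 and 9.77 in DN-SM. Every SHAM library was above every DN library, and SHAM replicate 2 was the lowest of its group. The fall in DN was 0.72 on the log2 scale (SE 0.137, 95% interval -1.01 to -0.42, adjusted p = 0.0185), or 1.64-fold. The call was lost when DN replicate 1, 2 or 3 was left out, with adjusted p of 0.0518, 0.0646 and 0.0765, and its log2 fold change stayed between -0.82 and -0.63 over all 9 omissions.

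Pfkm is the muscle subunit of phosphofructokinase, the main control point of the pathway. Its FPKM was 1230, 1518 and 1440 in SHAM, 916, 1021 and 860 in DN, beside 1116, 1096 and 929 in DN-SM. The lowest SHAM library, replicate 1, was above the highest DN library. The fall was 0.67 on the log2 scale (SE 0.167, 95% interval -1.03 to -0.30, adjusted p = 0.0443), or 1.59-fold. That p lies close to the threshold. Of the 9 omissions of 1 library, the call held without SHAM replicate 1 (0.0245) and without SHAM replicate 3 (0.0466). With SHAM replicate 2 omitted it was 0.122. Omitting DN replicate 1, 2 or 3 gave 0.1, 0.0846 and 0.168, and omitting DN-SM replicate 1, 2 or 3 gave 0.0671, 0.0701 and 0.0526. A fit of SHAM and DN alone gave 0.097. The log2 fold change ranged from -0.81 to -0.56 over the 9 omissions.

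The other enzymes of the upper pathway did not pass. Gpi, which converts glucose phosphate to fructose phosphate, had a log2 fold change of -0.29 (95% interval -0.70 to 0.12, adjusted p = 0.399). Its libraries read 962, 1198 and 1175 FPKM in SHAM and 1088, 988 and 806 in DN, which overlap. Aldoa read 16286, 20671 and 20000 in SHAM and 16955, 17235 and 12706 in DN, with a fold change of -0.36 (-0.80 to 0.08, adjusted p = 0.324). Both groups thus overlapped for Aldoa, and DN replicate 3 lay well below the other DN libraries. Tpi1, which interconverts the triose phosphates, read 1925 to 2322 in SHAM and 1934 to 2075 in DN and had a fold change of -0.18 (-0.51 to 0.15, adjusted p = 0.518).

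In the lower pathway, Eno3 and Pgam2 had values nearest to 0. Eno3, which forms phosphoenolpyruvate, read 3745, 5086 and 4609 FPKM in SHAM and 4847, 4950 and 4030 in DN. The log2 fold change was -0.04 (95% interval -0.45 to 0.37, adjusted p = 0.921), and its sign turned under some settings. Pgam2, which moves the phosphate group one step before enolase, read 3353, 4292 and 4791 in SHAM and 4828, 4242 and 3867 in DN. Its fold change was -0.03 (-0.44 to 0.39, adjusted p = 0.952), also with a sign that turned. The intervals include falls of the size seen for Pgk1, Pkm and Ldha, so these data do not show that Eno3 and Pgam2 were unaltered.

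Pgk1, Pkm and Ldha lay between these and the called members. Pgk1 read 610, 823 and 781 FPKM in SHAM and 529, 669 and 611 in DN, a log2 fold change of -0.38 (adjusted p = 0.217). Pkm, which makes pyruvate and ATP, read 2988, 3793 and 3751 in SHAM and 2979, 2981 and 2330 in DN (-0.43, adjusted p = 0.223). Its groups did not overlap in FPKM, by a small margin, and did overlap in TMM-scaled counts. Ldha, the lactate dehydrogenase subunit of fast muscle, read 1406, 1799 and 1823 in SHAM and 1443, 1408 and 1246 in DN (-0.38, adjusted p = 0.224). In FPKM 3 of 10 members, Hk2, Pfkm and Pkm, were lower in DN without overlap, against 6.91% of all genes tested.

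With stimulation of the injured muscle, 0 of 10 members changed by edgeR, against 0.00987% of all genes called. The share of all genes called depended on the setting: it was 2.28% with DESeq2, 6.2% with limma-voom, 7.21% in a fit of DN and DN-SM alone and at most 0.0109% with limma on FPKM. Each of these also called 0 members. By edgeR 1 member was higher at an unadjusted p under 0.05, against 11.1% of all genes higher and 6.5% lower. All 10 log2 fold changes of DN-SM against DN were above 0, against 48.7% of all genes, from 0.15 for Gpi to 0.42 for Pgk1, with a median of 0.21 against -0.01 for all genes. DN is the shared group of this comparison and of DN against SHAM, so the opposite signs are not separate pieces of evidence.

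Pgk1 had the largest value. It read 769, 837 and 651 FPKM in DN-SM beside 529, 669 and 611 in DN, and the fold change of 0.42 had a 95% interval of 0.04 to 0.79 (unadjusted p = 0.0331, adjusted p = 0.243). The lowest DN-SM library, replicate 3, lay within the DN range, although the groups did not overlap in TMM-scaled counts. For the members that fell after injury, the difference between DN-SM and DN was 0.20 for Hk2 (-0.10 to 0.50, adjusted p = 0.446) and 0.26 for Pfkm (-0.10 to 0.62, adjusted p = 0.423). Ldha stood at 0.26 and Eno3 at 0.26, with intervals of -0.12 to 0.64 and -0.15 to 0.67. No member's FPKM separated DN-SM from DN, while 11.4% of all genes were higher and 21.3% lower without overlap.

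Between DN-SM and SHAM, edgeR called 0 of 10 members, against 0.839% of all genes, and 2 members were lower at an unadjusted p under 0.05, against 6.23% of all genes lower and 6.54% higher. DESeq2 called 1 member, Hk2 (adjusted p = 0.0381), against 2.63% of all genes, and the limma settings called 0, against 0.182 to 1.02% of all genes. Hk2 had a log2 fold change of -0.51 (95% interval -0.81 to -0.22, adjusted p = 0.113) and Pfkm of -0.41 (-0.77 to -0.05, adjusted p = 0.326). These were the 2 members whose DN-SM libraries all lay below SHAM in FPKM, against 9.34% of all genes lower and 7.49% higher. The highest Hk2 library of DN-SM, at 11.4, was just under the lowest of SHAM, at 11.7, and Pfkm overlapped in TMM-scaled counts. Gpi, Aldoa, Pkm and Ldha stood between -0.22 and -0.12 and Tpi1 at -0.01. Pgk1, Pgam2 and Eno3 were at 0.03, 0.14 and 0.21, so 7 members were below 0 and 3 above, against 47.5% and 52.4% of all genes.

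**Figure D2:**
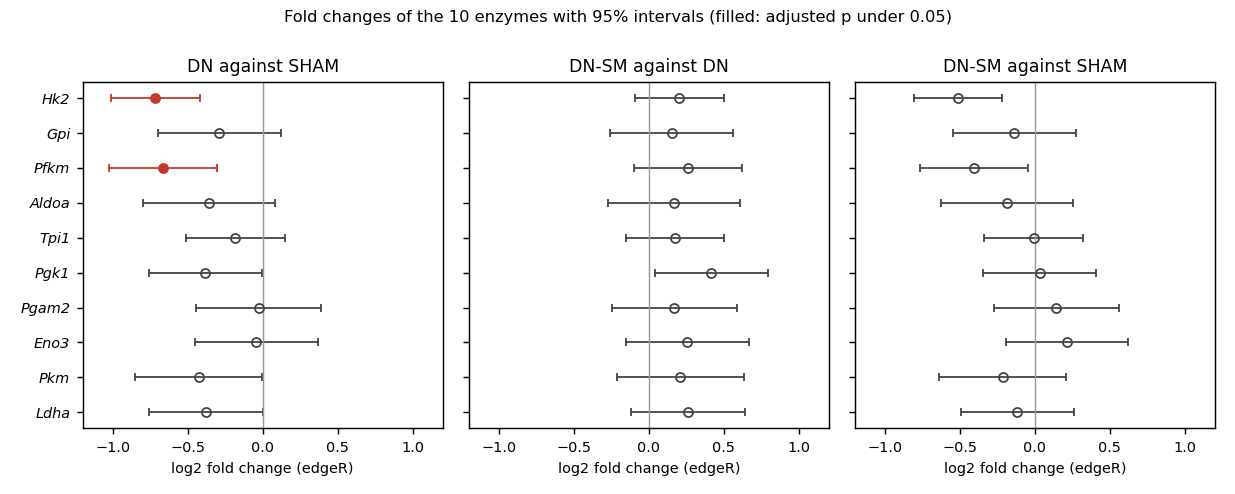
Log2 fold changes from edgeR (horizontal axis) for the 10 enzymes in pathway order, with 95% intervals, in the 3 comparisons; filled points have an adjusted p under 0.05. Hk2 at -0.72 and Pfkm at -0.67 in DN against SHAM are the filled points, and every point of DN-SM against DN lies above 0.

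Ratios within a library do not depend on how libraries are scaled. They were chosen after the values were seen, so they are descriptions with no test. Pfkm over Eno3 was 0.328, 0.298 and 0.313 in SHAM, 0.189, 0.206 and 0.213 in DN, beside 0.207, 0.202 and 0.197 in DN-SM. The means were 0.313 ± 0.015 (SD, n = 3) for SHAM, 0.203 ± 0.0125 for DN and 0.202 ± 0.00476 for DN-SM. All 6 injured libraries lay below all SHAM libraries, and the DN-SM values fell inside the DN range. Gpi over Pfkm, neighbours in the pathway, averaged 0.796 ± 0.0178 for SHAM, 1.03 ± 0.136 for DN and 0.958 ± 0.0523 for DN-SM. Eno3 over Pgam2, consecutive steps, was 1.09 ± 0.114, 1.07 ± 0.0853 and 1.14 ± 0.083, with overlapping libraries. Hk2 over Eno3 overlapped between SHAM and DN, since SHAM replicate 2 (0.0023) was below DN replicate 3 (0.00247).

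**Figure D3:**
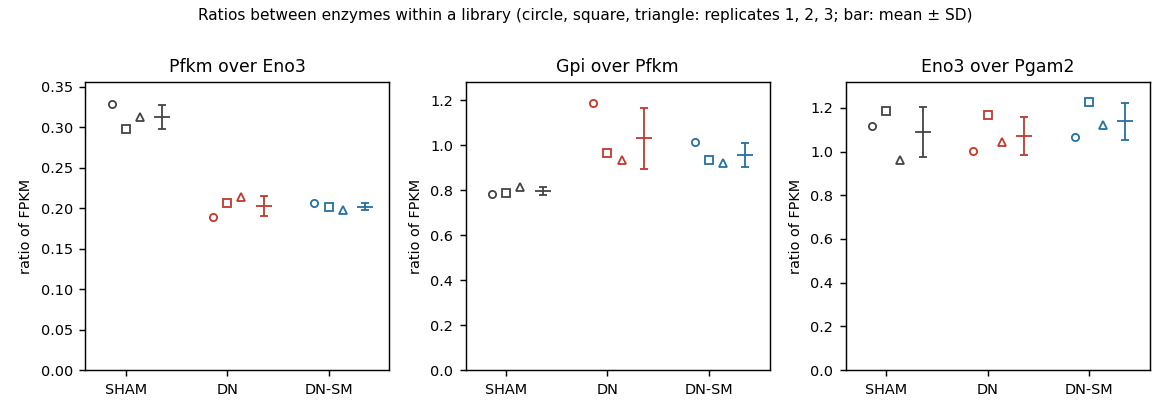
Ratio of FPKM within a library (vertical axis, from 0) for Pfkm over Eno3, Gpi over Pfkm and Eno3 over Pgam2; points are libraries and bars are mean ± SD. Pfkm over Eno3 is 0.298 to 0.328 in SHAM and 0.189 to 0.213 in the injured groups, and Eno3 over Pgam2 overlaps in all groups.

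On a scale added after the data were seen, each member was also set against the mean log2 FPKM of the 10 members in the same library. This centres the members themselves, while a shift of their mean between groups moves all other genes the opposite way. The shares of all genes on this scale are thus no like-for-like yardstick for the members. In DN, Pfkm alone lay below its SHAM range, by 0.32 on average, and 1.22% of all genes were lower on this scale. Tpi1, Pgam2 and Eno3 lay above, as did 24.3% of all genes. A mean over the 8 members other than Hk2 and Pfkm leaves out the 2 members called lower in DN. That choice widened the difference of Pfkm from -0.318 to -0.405, and the limit on the shares holds here too. On it Pfkm, Aldoa, Pkm and Ldha were lower, beside 1.65% of all genes, and Pgam2 and Eno3 higher, beside 14.9%. Of the 10 members, 0 separated DN-SM from DN with either mean. With the mean over the 10 members, 26.4% of all genes were lower and 5.56% higher. Between DN-SM and SHAM, Pfkm and Aldoa were lower, against 2.5% of all genes, and Tpi1, Pgk1, Pgam2 and Eno3 higher, against 8.4%. With the mean over the 8 members, Gpi, Pfkm, Aldoa and Pkm were lower, against 3.53% of all genes, and Eno3 higher, against 4.62%.

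Most isozyme families of the pathway drew nearly all their messenger RNA from the member listed here, which for Pkm covers both splice forms. Aldoa and Pkm held 99.99% or more, as rounded, of the FPKM of their families in every library, Pfkm 99.0 to 99.7% beside Pfkl and Pfkp, and Pgam2 99.0 to 99.7% beside Pgam1. Eno3 averaged 96.8 ± 0.535% for SHAM, 95.5 ± 1.04% for DN and 96.9 ± 0.479% for DN-SM, with Eno1 and Eno2 making up the rest. Of the other isozymes, Hk3, Pklr and Ldhc did not pass the filter, and Pgk2 was listed in no library. Shares were compared with two-sided exact permutation tests, in which 3 libraries against 3 cannot go below p = 0.1, with adjustment over 7 shares.

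The hexokinases had the largest difference of the 7 shares between SHAM and DN. Hk2 held 75.2, 76.8 and 73.2% of hexokinase FPKM in SHAM, 56.0, 50.8 and 51.9% in DN, beside 54.4, 64.4 and 64.4% in DN-SM. DN lay below SHAM in every library, by 22.2 percentage points (exact permutation p = 0.1, adjusted p = 0.233), and so did DN-SM, by 14.0 points (exact permutation p = 0.1, adjusted p = 0.7). DN-SM was 8.15 points above DN with overlap (exact permutation p = 0.2, adjusted p = 0.35). Hk1, the hexokinase of most other tissues, read 5.25, 3.50 and 5.62 FPKM in SHAM, 7.09, 8.29 and 9.16 in DN, beside 7.10, 6.17 and 5.40 in DN-SM. It rose in DN by 0.70 on the log2 scale (SE 0.174, adjusted p = 0.0439). That call held without SHAM replicate 3 (0.00944) and was lost without any other single library, at an adjusted p of 0.0915 or 0.13 with SHAM replicate 1 or 2 omitted, of 0.0838, 0.119 or 0.152 with DN replicate 1, 2 or 3 omitted, and of 0.0616, 0.0725 or 0.0526 with DN-SM replicate 1, 2 or 3 omitted.

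Hk1 is also made by cells other than fibres. The summed markers of endothelium, Schwann cells and adipocytes were higher in DN than in SHAM without overlap. Those of fibroblasts, macrophages, satellite cells, red blood cells and smooth muscle overlapped between SHAM and DN. Endothelial markers (6 of 6 listed) summed to 88.5 to 98.0 FPKM for SHAM, 123 to 169 for DN and 116 to 129 for DN-SM, with 2 of 6 higher in DN by edgeR. Schwann cell markers (7 of 7 listed) summed to 60.2 to 69.0, 132 to 308 and 77.9 to 172, with 2 of 7 higher in DN. Adipocyte markers (5 of 5 listed) summed to 72.5 to 83.9, 95.9 to 134 and 93.4 to 123, with 0 called. In the fibroblast, macrophage, satellite cell, red blood cell and smooth muscle lists 0 markers were called in DN against SHAM. Of all genes, 2.57% were called higher. In FPKM 15.9% of all genes were higher in DN than in SHAM without overlap and 6.91% lower. No listed endothelial or Schwann cell marker was at 0 in any library, while Lep of the adipocyte list was at 0 in some. The part of such cells in the rise of Hk1 and in the hexokinase shares was not tested.

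The make-up of lactate dehydrogenase overlapped between all groups. Ldha held 76.6, 92.9 and 85.2% of the FPKM of its family in SHAM, 78.4, 81.3 and 71.2% in DN, beside 90.6, 90.1 and 80.0% in DN-SM. The differences were -7.94 points for DN against SHAM (exact permutation p = 0.3, adjusted p = 0.42) and 9.93 for DN-SM against DN (exact permutation p = 0.2, adjusted p = 0.35). Ldhb, the subunit typical of oxidative tissue, read 429, 138 and 316 FPKM in SHAM, 397, 323 and 505 in DN, beside 162, 184 and 343 in DN-SM, and passed in none of the comparisons (adjusted p = 0.578, 0.368 and 0.805).

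**Figure D4:**
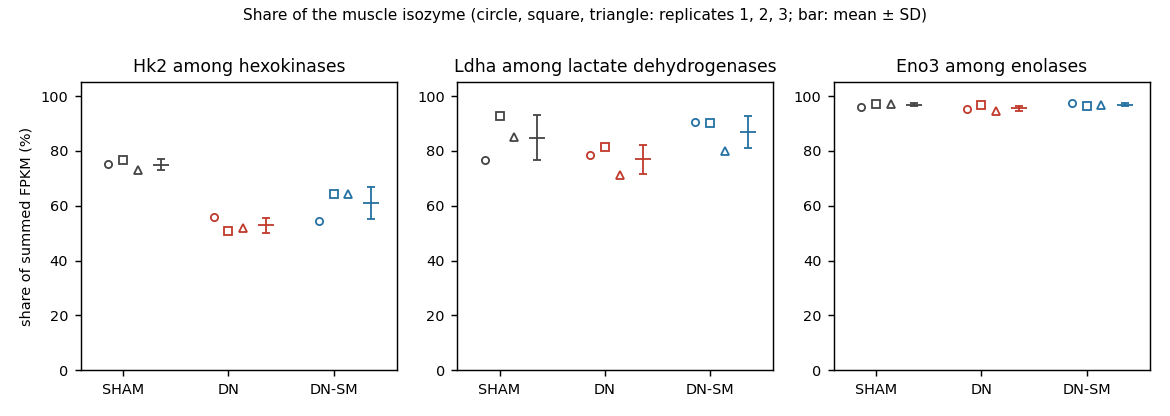
Share of the muscle isozyme in the summed FPKM of its family (vertical axis, percent, from 0) for Hk2, Ldha and Eno3; points are libraries and bars are mean ± SD. Hk2 is at 73.2 to 76.8% in SHAM and 50.8 to 56.0% in DN, and the Ldha shares of the groups overlap.

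Other genes of the pathway were taken from a list of 44. It held isozymes, Gapdh, enzymes of fructose 2,6-bisphosphate and of bypass steps (among them Bpgm), transporters, the NADH shuttle and regulators. Of these 40 were listed and 34 could be tested. In DN against SHAM 1 of 34 was higher (Hk1) and 1 of 34 lower (Bpgm), a share near the 2.57% and 1.7% of all genes. By sign, 17 were below 0 and 17 above, with a median of 0.02. At an unadjusted p under 0.05 by edgeR there were 12 of 34, against 10.9% of all genes higher and 11.4% lower. In FPKM 6 were higher and 4 lower without overlap, against 15.9% and 6.91% of all genes. Bpgm, which makes bisphosphoglycerate as a bypass of Pgk1, read 96.7, 114 and 95.7 FPKM in SHAM, 67.2, 74.8 and 57.9 in DN, beside 76.6, 93.0 and 72.7 in DN-SM. Bpgm fell in DN, with a log2 fold change of -0.70 (adjusted p = 0.0331), and the call was lost without SHAM replicate 2 (0.0836) or DN replicate 1, 2 or 3 (0.0774, 0.0553 and 0.132). Red blood cells are rich in Bpgm, and their markers (4 of 4 listed) summed to 10247 to 17947 FPKM for SHAM, 5346 to 13705 for DN and 4051 to 17900 for DN-SM; their part in this fall was not tested.

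Gapdh, the step between Tpi1 and Pgk1, had levels like those of Aldoa and fractional expected counts, which make them uncertain. It read 15859, 20633 and 18744 FPKM in SHAM, 16040, 14887 and 13910 in DN, beside 19822, 16797 and 16085 in DN-SM, with log2 fold changes of -0.38 in DN against SHAM (adjusted p = 0.258) and 0.32 in DN-SM against DN (adjusted p = 0.384). Pfkfb3 makes fructose 2,6-bisphosphate, a signal that activates phosphofructokinase. It read 8.35, 25.5 and 14.6 in SHAM, 2.57, 6.60 and 3.47 in DN, beside 6.40, 4.29 and 5.41 in DN-SM. Every SHAM library was above every injured library, yet the log2 fold change of -2.05 missed the threshold in DN against SHAM (adjusted p = 0.0551), although DESeq2 and limma on filtered FPKM called it. The isozymes Eno1 and Pgam1 had values of 0.47 and 0.38 in DN against SHAM (adjusted p = 0.102 and 0.264).

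For DN-SM against DN and for DN-SM against SHAM, edgeR called 0 of the 34 genes, with 3 at an unadjusted p under 0.05 in each comparison, against 17.6% and 12.8% of all genes. DESeq2 called 1 in each, Bsg and Pfkfb3, against 2.28% and 2.63% of all genes. With limma-voom the calls were Bsg in the first and 0 in the second, against 6.2% and 1.02%. These counts are near or below the share of all genes. Bsg, a partner of lactate transporters at the membrane, had a log2 fold change of -0.55 in DN-SM against DN (adjusted p = 0.144 by edgeR).

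Within each group the libraries differed in the same way over most members. SHAM replicate 1 was the lowest of its group for 9 of 10 members, DN replicate 3 for 7 of 10 and DN-SM replicate 3 for 9 of 10. Hk2 went the other way in SHAM and DN, where SHAM replicate 1 and DN replicate 3 were the highest of their groups. The same 3 libraries had the least fast and the most slow fibre marker RNA of their groups. Fast fibre markers (10 of 11 listed, among them Actn3 and Mylpf) summed to 58037, 89257 and 72886 FPKM in SHAM, 63167, 63323 and 53654 in DN, beside 80862, 75318 and 67474 in DN-SM. Slow fibre markers (8 of 8 listed, among them Myh7 and Tnni1) summed to 16303, 4399 and 10579 in SHAM, 16662, 16090 and 22107 in DN, beside 7828, 7909 and 18218 in DN-SM. No listed fibre marker was at 0 in a library.

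SHAM replicate 1 had a slow fibre marker sum close to those of DN replicates 1 and 2, and a fast sum somewhat below both. Its summed markers of skeletal fibres were lower, at 108280 FPKM against 130570 and 122860. Of the 10 members, 3 were above both of these DN libraries in it (Hk2, Pfkm and Pkm), 6 were below both (Gpi, Aldoa, Tpi1, Pgam2, Eno3 and Ldha) and Pgk1 lay between them. Hk2 was 15.9 there against 9.07 and 8.56, and Pfkm 1230 against 916 and 1021, while Eno3 was 3745 against 4847 and 4950 and Pgam2 3353 against 4828 and 4242. Pkm, at 2988, was close to their 2979 and 2981. The part of fibre make-up in the differences between groups was not tested.

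**Figure D5:**
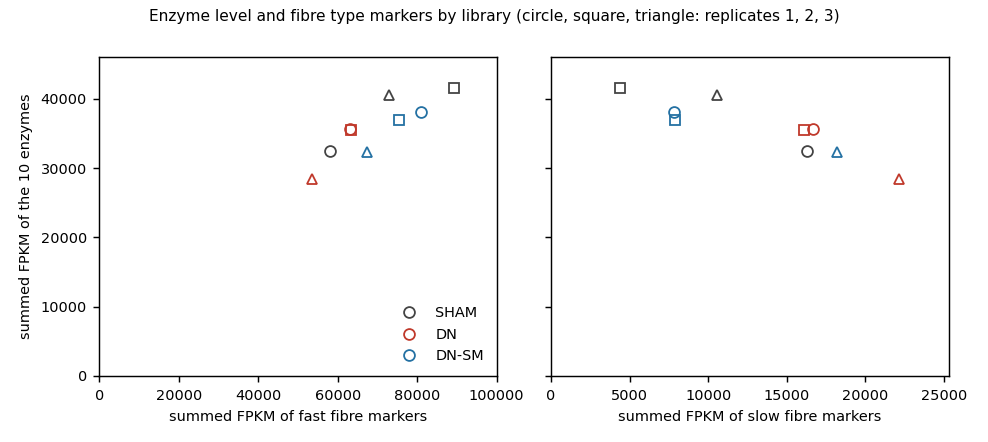
Summed FPKM of the 10 enzymes (vertical axis, from 0) against the summed FPKM of fast fibre markers (left) and of slow fibre markers (right); each point is a library. SHAM replicate 1, DN replicate 3 and DN-SM replicate 3 have the lowest fast and the highest slow sums of their groups.

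The genes most like the members were sought among 5371 genes with a mean FPKM of at least 5, by Pearson correlation of log2 library-scaled counts with the mean of the 10 z-scored members over the 9 libraries. The libraries share depth, fibre make-up and group, so these values are descriptions. The 8 highest were Actn3 (0.98), a fast fibre actinin that is also among the fast markers, Pygm (0.98), the muscle glycogen phosphorylase, Gpt2 (0.97), an alanine aminotransferase, Upf3a (0.96), Hras (0.96), Pgm1 (0.95), which links glycogen to glucose 6-phosphate, Fam89b (0.95) and Atp1b2 (0.95). Pygm, for instance, read 4971, 7044 and 6577 FPKM in SHAM, 4871, 4856 and 3874 in DN, beside 5557, 5240 and 4645 in DN-SM, with SHAM replicate 1 and replicate 3 of both injured groups again the lowest.

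Among the members themselves, Ldha followed their mean most closely (0.99) and Hk2 least (0.44), with the other 8 between 0.77 and 0.97. For Hk2 alone the most alike genes were Sgf29 (0.97), Pdk4 (0.97), a kinase that inhibits pyruvate dehydrogenase, Timm17a (0.95), a part of the mitochondrial import channel, and Wnk2 (0.92). Pdk4 read 71.0, 61.8 and 80.2 FPKM in SHAM, 29.1, 26.3 and 31.0 in DN, beside 20.6, 42.7 and 34.1 in DN-SM. As with Hk2, SHAM replicate 2 was the lowest of its group, DN replicate 2 the lowest of DN, and DN-SM replicate 1 the lowest of DN-SM.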

How the data were processed

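Messenger RNA of 9 gastrocnemius libraries (3 each of SHAM, DN and DN-SM) was sequenced on a BGISEQ-500, per the labels' protocols. Each deposited file holds expected counts and FPKM values by gene, per the file headers; genes at 0 are not listed and were set to 0. The submitters' processing notes name RSEM, HISAT2, GATK and build rn6, with no versions. The FPKM were computed by the authors and were not rescaled. Symbols came from a RefSeq table (GRCr8): 13649 of 13752 IDs matched by gene ID and 7 by accession.

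After rounding, the expected counts went into the two-sided quasi-likelihood F test (robust) of edgeR 4.0.16 in R 4.3.3, with TMM factors and filterByExpr (minimum count 10, minimum total 15), all 9 libraries in 1 fit, and Benjamini-Hochberg adjustment over 10129 genes at a threshold of 0.05. The test was tested on simulated data. Isozyme shares of FPKM were compared by exact permutation. Totals of 7926445 to 8893843 counts limit the precision for genes with few counts. Hk2, the lowest member at 265 to 511 counts, still had an SE of 0.137 in DN against SHAM, the smallest among the members.

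Alternatives were RLE and upper-quartile factors, DESeq2 1.42.0, limma 3.58.1 (voom with sample weights, or log2 FPKM with a pseudocount of 1 or 0.1, keeping genes with an FPKM of at least 1 in 3 libraries or, for the pseudocount of 1, all genes), other filters, only the 2 groups compared, a replicate block, library sizes that omit the 20 genes of highest abundance, and each library left out in turn. Named genes were all members, all isozymes and called genes of the wider list, and the 8 genes (4 for Hk2) most correlated with the members; others are named where an alternative turns on them, and some genes of the wider list are not reported here. Members and lists were chosen with earlier results of these data known.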

Additional observations from a re-analysis of the deposited data

How the results depend on the processing

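Of 1134 recomputed fold changes of the members and named pathway genes, 1056 kept direction and side of the threshold, 36 lost a call, 12 gained one and 30 turned sign; 165 of 168 isozyme share differences moved by less than the spread between replicates. The count of members called in DN against SHAM, 2 with all libraries, was 1 with limma-voom (Hk2), with the replicate block (Hk2), in the fit of the 2 groups alone (Hk2) and with limma on log2 FPKM with a filter at either pseudocount (Pfkm), and 0 with no filter on FPKM. All genes called were 4.78%, 3.13%, 1.57%, 2.73 to 3.04% and 0.953% in these settings, in this order. It was 0 to 2 over the omissions of 1 library: 0 without any DN library. The wider list gave 5 calls there with DESeq2 (7.43% of all genes called) and 0 with no filter on FPKM or with the 2 groups alone, and 0 to 4 over the omissions. In DN-SM against DN the wider list, with 0 calls, gave 1 with DESeq2, 1 with limma-voom and 2 with the 2 groups alone (Bsg among them), while all genes called rose from 0.00987% to 2.28%, 6.2% and 7.21%, and 0 to 1 over the omissions. In DN-SM against SHAM DESeq2 gave 1 member (Hk2) and 1 gene of the wider list (Pfkfb3). Deviations of same-numbered libraries from their group means had correlations of -0.048 to 0.109 in 9 pairs. Such values do not show that the numbers pair the samples and cannot exclude it, and the labels state no pairing.

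Signs turned only for fold changes that passed in no setting. In DN against SHAM, Pgam2 was 0.13 with limma-voom, 0.067 with each FPKM setting and -0.22 to 0.11 over the omissions, and Eno3 was 0.11, 0.046 and -0.22 to 0.10. In DN-SM against SHAM, limma-voom gave 0.054 for Gpi, 0.14 for Tpi1, 0.086 for Ldha and 0.12 for Gapdh, and upper-quartile factors gave 0.013 for Tpi1 and 0.012 for Pgam1. The omissions gave -0.15 to 0.10 for Tpi1, -0.15 to 0.16 for Pgk1, -0.046 to 0.28 for Pgam2, -0.11 to 0.10 for Pgam1 and -0.22 to 0.076 for Gapdh. Isozyme shares in counts not scaled to length moved for Pkm (-0.0102 points in DN against SHAM, 0.00938 in DN-SM against DN) and Pgam2 (0.516 in DN-SM against DN). The causes were not tested.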
